A study of Mus musculus with 9 samples.

Results

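Small leucine-rich proteoglycans are secreted matrix proteins, and 10 of their genes were followed here through the culture of mouse lung spheres: decorin (Dcn), biglycan (Bgn), asporin (Aspn), lumican (Lum), keratocan (Kera), fibromodulin (Fmod), Prelp, osteomodulin (Omd), osteoglycin (Ogn) and epiphycan (Epyc). They were chosen by name as a family, with earlier results of these data known, and all 10 were found among the 27179 gene IDs of the count table. Enough reads for a test were present for 9 of them; Epyc was too low, and Omd passed the filter on low counts through the days on which it was high. The cells came from lungs of C57/B6 mouse embryos of embryonic day E11.5, separated with trypsin. Cells that attached to ordinary plastic within an hour, where mesenchyme settles, were left behind. The cells still in suspension were cultured on low-attachment plates, where they form spheres called pneumospheres. All groups shared the same medium, with 20 ng/ml basic FGF, 10 ng/ml EGF, heparin and the supplements B27 and ITS, and the same gas, with 5% oxygen and 10% carbon dioxide. The spheres were split on days 3 and 7, and poly(A) RNA was sequenced from 3 libraries each on days 3, 7 and 10. No genetic change or drug distinguishes the days, so that each comparison sets a later time of culture against an earlier one. The series concerns Aurora kinase B and Sox9-positive lung progenitors, and its genetic screen was not analysed here.

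The core of each of these proteins is a curved run of leucine-rich repeats that binds collagen fibrils and limits how thick they grow. Members of class I (Dcn, Bgn, Aspn) and class II (Lum, Fmod, Kera, Prelp, Omd) differ in their sugar chains: decorin and biglycan carry chondroitin or dermatan sulfate, and lumican, fibromodulin and keratocan can carry keratan sulfate. Class III holds Epyc and Ogn. In tissues the genes are typically transcribed by fibroblasts and other connective tissue cells, and Dcn and Lum are widely used to recognise lung fibroblasts.

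Library totals ran from 20716878 to 30466712 counts. Levels are given as CPM, that is, counts scaled to library size after TMM adjustment, and a library with no count could still hold up to 3 counts, which is 0.0987 to 0.149 CPM. Libraries are called by day and replicate number. Day 3 replicate 2 stood apart because 1 unnamed gene ID took 6.79% of its counts, against 0.169% to 0.515% in the other 8 libraries. Day 10 replicate 3 stood apart in Aurkb, the mitotic kinase of the title, with 18.2 CPM against 40.8 and 41.7 CPM in the other day 10 libraries. The series' design text calls the starting suspension enriched for epithelium; that suspension is not among the libraries, and transcripts of lung epithelium were near 0 in the cultures. The summed level of 10 lung epithelium markers was 1.05 to 2.07 CPM on day 3, 0.0390 to 0.700 CPM on day 7 and 0.106 to 0.320 CPM on day 10, with Nkx2-1, Foxa1 and Shh at 0 counts in all 9 libraries. No cell type is given to the cultures here.

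Together the 10 transcripts became far more abundant in culture. Their summed level was 863 ± 57.9 CPM on day 3, 4196 ± 211 CPM on day 7 and 7036 ± 401 CPM on day 10 (mean ± SD, n = 3 libraries a day, as for all levels below). That is 8.15-fold higher on day 10 than on day 3, and the libraries of any 2 days did not overlap. As a share of all counts, the 10 genes took 0.0890% ± 0.00901 on day 3, 0.421% ± 0.0245 on day 7 and 0.681% ± 0.0425 on day 10. Dcn and Bgn made up most of this sum, and without them the other 8 members still had 7.68-fold more on day 10 than on day 3. A list of 12 mesenchyme markers, among them Col1a1, Col1a2, Col3a1, Pdgfra and Vim, moved the same way: its summed level was 14283 to 16055 CPM on day 3, 26804 to 32349 CPM on day 7 and 40037 to 45639 CPM on day 10, with none of the 12 at 0. The mesenchyme sum was 2.74-fold higher on day 10 than on day 3, but it consists mostly of Col1a1, Col1a2 and Col3a1. Their means were 3858, 1421 and 8244 CPM on day 3, and 11702, 6701 and 19790 CPM on day 10. Of the 12 markers 8 rose and 3 fell. Outside the collagens the rises ran from 0.30 (Vim) to 5.32 (Prrx1) on the log2 scale, and Foxf1 was not called (0.03). Those that fell were the lung mesenchyme transcription factors Tbx4, Tbx5 and Tcf21, with log2 changes of -2.73, -2.81 and -1.40. The part of mesenchymal cell number in the proteoglycan result was not tested. In these bulk libraries more cells of a type and more RNA per cell cannot be told apart.

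Counts of members called are given without Omd, because it passed the filter on low counts through the days on which it was high. On day 10 against day 3, 7 of the 8 other tested members rose and none fell at an adjusted p under 0.05, and Ogn was not called. Over all 14940 tested genes, 29.5% rose and 27.2% fell in this comparison. The median log2 change of these 8 members was 3.29, beside 0.0018 over all tested genes. Counted by overlap alone, 6 of the 8 had every day 10 library above every day 3 library, beside 32.5% of all tested genes. Day 7 against day 3 likewise called 7 of the 8 higher and none lower, beside 22.8% higher and 19% lower over all genes. The median log2 change was then 2.31 for the 8 members and 0.00027 for all tested genes. All 8 were above day 3 in every day 7 library, beside 30.5% of tested genes. Day 10 against day 7 called 4 of the 8 higher and none lower, beside 4.41% higher and 4.1% lower over all genes. By overlap alone, 6 of the 8 had every day 10 library above every day 7 library, beside 13.4% of tested genes, and Fmod had every one below, beside 12.6%. With scaling by library size alone the split of all called genes in that comparison moved to 437 higher and 675 lower, in place of 659 and 612. Without day 3 replicate 2 and day 10 replicate 3, the libraries that stood apart, 6 of these members were called higher on day 10 against day 3, 7 on day 7 against day 3 and 4 on day 10 against day 7. That fit, which also tested Epyc, called 3796, 3112 and 558 of 15087 genes higher in the same comparisons. The 3 comparisons share their libraries in pairs and are not independent of each other.

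Decorin, the class I member that binds collagen I and also TGF-beta, was first or second of the set per exon length on every day. Dcn had 361, 362 and 378 CPM on day 3, 1542, 1349 and 1303 CPM on day 7, and 2113, 2601 and 2713 CPM on day 10 (replicates 1 to 3). No library overlapped with one of another day. The log2 change was 1.93 (SE 0.11, adjusted p = 2.02e-06) on day 7 against day 3 and 2.75 (SE 0.12, adjusted p = 1.30e-07) on day 10 against day 3. Dcn also rose on day 10 against day 7, by a log2 change of 0.82 (SE 0.11, adjusted p = 0.00379). Under every alternative processing tried, that last call held for Dcn, with an adjusted p of at most 0.0357.

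Biglycan, the closest relative of decorin, is a matrix protein that can also act as a ligand of Toll-like receptors when it is free. Bgn had 222, 224 and 291 CPM on day 3, 1658, 1606 and 2045 CPM on day 7, and 3212, 2276 and 2415 CPM on day 10. The days did not overlap, and day 10 replicate 1 was the highest library. Bgn rose on day 7 against day 3 (log2 change 2.85, SE 0.17, adjusted p = 2.62e-06) and on day 10 against day 3 (log2 change 3.42, SE 0.18, adjusted p = 4.62e-07). On day 10 against day 7 its log2 change of 0.57 (SE 0.16) just missed the threshold, with an adjusted p of 0.0558.

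Asporin is named for its run of aspartate residues, binds collagen and is known from the periodontal ligament and cartilage. Aspn had 24.3, 32.6 and 26.7 CPM on day 3, 244, 261 and 245 CPM on day 7, and 271, 332 and 301 CPM on day 10. The days did not overlap, and the gap between days 7 and 10 was small. The log2 change was 3.17 (SE 0.12, adjusted p = 3.57e-07) on day 7 against day 3 and 3.44 (SE 0.12, adjusted p = 7.57e-08) on day 10 against day 3. Day 10 against day 7 gave 0.27 (SE 0.11, adjusted p = 0.155).

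Lumican, a class II member that orders collagen in the cornea and is also expressed in many other connective tissues, kept climbing. Lum had 24.4, 25.0 and 33.1 CPM on day 3, 205, 154 and 173 CPM on day 7, and 1010, 668 and 649 CPM on day 10. The days did not overlap, and day 10 replicate 1 was highest. Its log2 change was 2.69 (SE 0.21, adjusted p = 1.53e-05) on day 7 against day 3, 4.82 (SE 0.23, adjusted p = 4.39e-07) on day 10 against day 3, and 2.13 (SE 0.20, adjusted p = 0.00151) on day 10 against day 7. Among all 14940 tested genes the last of these was the 34th highest log2 change, and the call held under every alternative with an adjusted p of at most 0.0157.

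Keratocan, best known from the corneal stroma, had the highest log2 changes from day 3 of the members, with the rare Omd left out of this ranking. Kera had 10.6, 11.9 and 9.04 CPM on day 3, 238, 289 and 224 CPM on day 7, and 632, 654 and 316 CPM on day 10. Day 10 replicate 3, the library with low Aurkb, stood just above the day 7 libraries, while the other day 10 libraries were clearly higher. The log2 change was 4.57 (SE 0.29, adjusted p = 4.90e-06) on day 7 against day 3 and 5.67 (SE 0.30, adjusted p = 8.88e-07) on day 10 against day 3, the 42nd highest of all tested genes. On day 10 against day 7 Kera rose by 1.09 (SE 0.24, adjusted p = 0.0271), a call that ended in 7 alternatives, with an adjusted p of up to 0.0864, among them each fit that left out a day 7 library.

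Fibromodulin, which guides collagen cross-linking in tendon, followed another course. Fmod had 64.2, 59.1 and 92.0 CPM on day 3, 171, 168 and 249 CPM on day 7, and 138, 90.8 and 105 CPM on day 10. All day 7 libraries were above those of both other days, and day 10 overlapped with day 3. Fmod rose on day 7 against day 3 (log2 change 1.45, SE 0.22, adjusted p = 0.00082). The call on day 10 against day 3 (log2 change 0.63, SE 0.22, adjusted p = 0.0339) ended when day 3 replicate 1 or 2, or day 10 replicate 1 or 3, was left out, when no filter was used and when libraries were scaled by size alone, with an adjusted p of up to 0.166. On day 10 against day 7 Fmod was the only tested member with a negative log2 change, -0.82 (SE 0.22), and its adjusted p of 0.0510 did not pass. The summed level of 5 tendon markers was likewise highest on day 7. It was 756 to 829 CPM on day 3, 1416 to 1911 CPM on day 7 and 512 to 1250 CPM on day 10. Egr1 held the largest part of that sum, with means of 535, 939 and 730 CPM on days 3, 7 and 10. Egr1, Thbs4 and Tnmd had their highest mean on day 7. The means of Scx and Mkx were highest on day 3 and lower on each later day. The part of these markers in the course of Fmod was not tested. Of the 5, on day 10 against day 3, the tendon transcription factors Scx and Mkx fell by 2.73 and 2.51 on the log2 scale, Tnmd rose by 3.53, and Thbs4 (log2 change -0.16) and Egr1 (0.45) were not called.

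Prelp, a class II protein that links collagen to heparan sulfate of basement membranes, was lower than these per exon length and rose in both steps. Prelp had 6.35, 6.39 and 9.04 CPM on day 3, 25.5, 19.7 and 27.1 CPM on day 7, and 42.0, 56.7 and 94.7 CPM on day 10. The days did not overlap, and the day 10 libraries were the most spread, with replicate 3 highest. The log2 change was 1.73 (SE 0.29, adjusted p = 0.00142) on day 7 against day 3, 3.16 (SE 0.30, adjusted p = 2.57e-05) on day 10 against day 3 and 1.42 (SE 0.28, adjusted p = 0.0171) on day 10 against day 7. The last call ended without day 7 replicate 2 and in the fit of only these 2 days, with an adjusted p of up to 0.0813.

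Osteomodulin, a keratan sulfate proteoglycan of bone and teeth, was rare but followed the same direction. Omd had 0, 0 and 2 counts on day 3, 20, 10 and 12 counts on day 7, and 28, 33 and 43 counts on day 10, which is 1.41 ± 0.0999 CPM on day 10. The counts of the days did not overlap. Because day 3 rests on 2 counts, the change is given as a ratio of summed counts per scaled library size: 51.5 on day 10 against day 3 (95% exact counting interval 13.9 to 431) and 19.0 on day 7 against day 3 (4.95 to 162). The ratio was 2.71 on day 10 against day 7 (1.87 to 3.97). Of 5 bone markers, Ibsp was at 0 counts in all libraries, while their summed level was 8.73 to 9.90 CPM on day 3, 27.7 to 34.6 CPM on day 7 and 41.3 to 63.9 CPM on day 10; its part in the Omd result was not tested. Counting intervals and floors cover counting error only.

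Osteoglycin, also called mimecan, is the class III member of many connective tissues. Ogn had 108, 118 and 90.9 CPM on day 3, 143, 124 and 121 CPM on day 7, and 77.8, 156 and 177 CPM on day 10. The day 10 libraries bracketed all others, with replicate 1 the lowest of the 9 and replicates 2 and 3 the highest. The log2 change was 0.37 (SE 0.25, adjusted p = 0.230) on day 10 against day 3 and 0.29 (SE 0.25, adjusted p = 0.383) on day 7 against day 3. Without day 10 replicate 1 the day 10 change became 0.66 and was called (adjusted p = 0.00149), so that the result for Ogn rests on that library. Day 7 against day 3, where the libraries do not overlap, was called in the fit of only those 2 days (adjusted p = 0.0374).

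Epiphycan, a class III proteoglycan of growth plate cartilage, was at the edge of detection. Epyc had 1, 4 and 2 counts on day 3, 4, 1 and 22 counts on day 7, and 18, 8 and 4 counts on day 10. The days overlapped and single libraries held most of the reads. The ratio of summed counts was 4.24 on day 10 against day 3 (95% exact counting interval 1.83 to 11.4), which does not include the spread between libraries, and with no filter the adjusted p was 0.159. The summed level of 9 cartilage markers was 109 to 121 CPM on day 3, 187 to 334 CPM on day 7 and 168 to 422 CPM on day 10. Col9a2 held most of that sum, with 84.9 ± 5.65, 200 ± 81.6 and 245 ± 137 CPM on days 3, 7 and 10. Of the 7 markers tested, Col9a2 and Hapln1 rose on day 10 against day 3 (log2 changes 1.53 and 2.12) and Col9a1 and Sox5 fell (-4.71 and -0.38). Col9a1 passed the filter only through day 3, with 2.65 CPM beside 0.106 CPM on day 10. Matn1 was at 0 counts on days 7 and 10, and the cartilage proteoglycan Acan stayed at 0.0636 CPM or less on average. Their part in the Epyc counts was not tested.

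**Figure D1:**
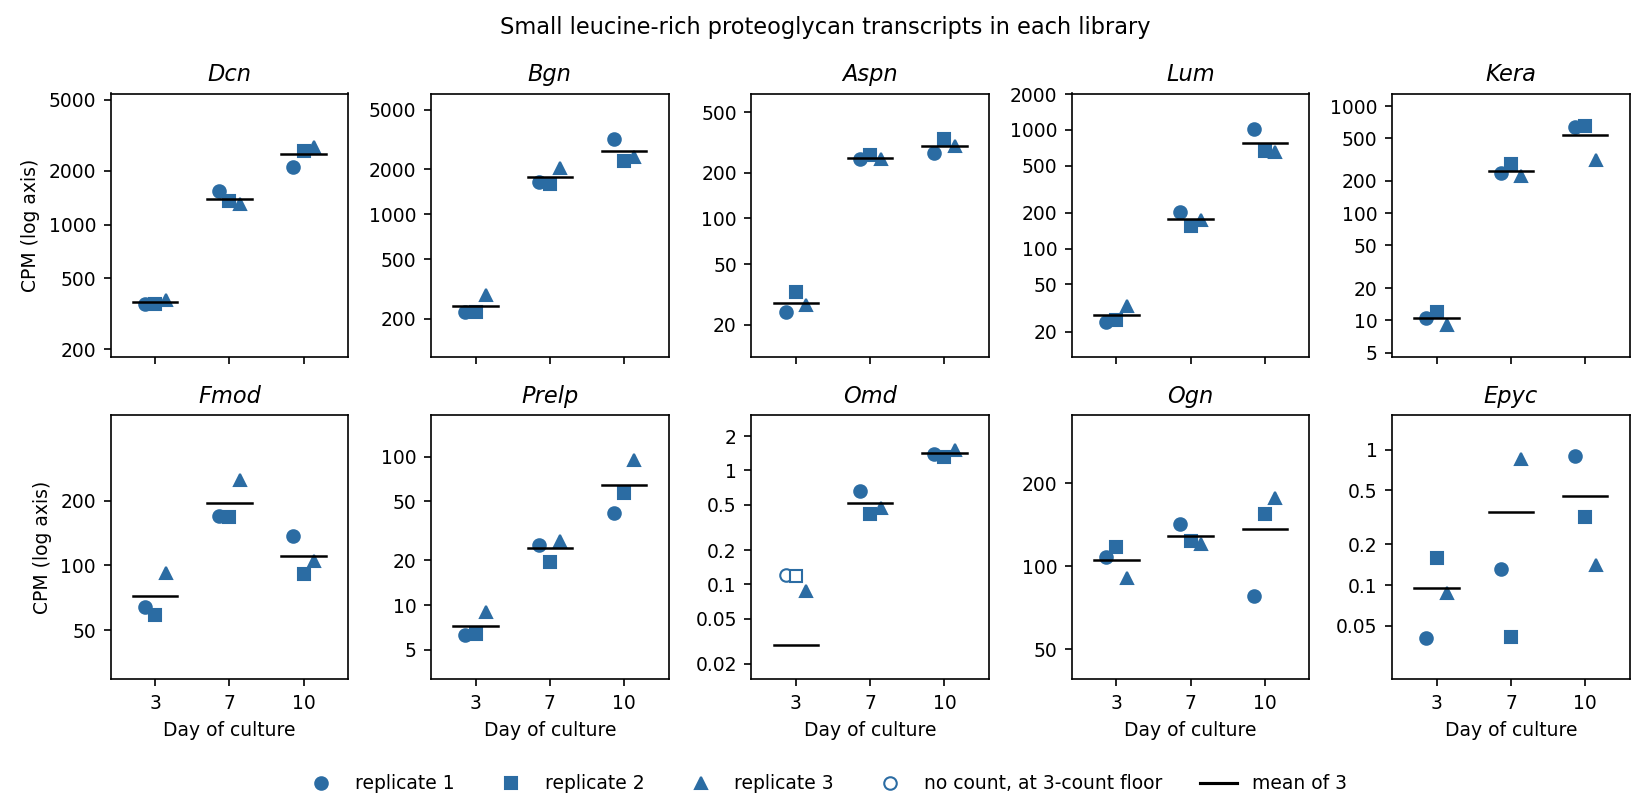
CPM of the 10 proteoglycan genes (log axis, 1 panel a gene) by day of culture, with a symbol for each replicate and a line at the mean of 3 libraries; open symbols are libraries with no count, drawn at the level of 3 counts and averaged as 0. In most panels the mean climbs in both steps, Fmod peaks on day 7 with 196 ± 46.3 CPM, and Ogn spreads on day 10 between 77.8 and 177 CPM.

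The members did not divide their change equally between the earlier and the later step. A contrast of day 10 against day 7 minus day 7 against day 3 called 5 of the 8 members lower and none higher, beside 5.96% lower and 2.06% higher over all tested genes. The 5 were Kera (-3.48, SE 0.41, adjusted p = 0.00140), Aspn (-2.90, SE 0.18, adjusted p = 6.10e-05), Bgn (-2.28, SE 0.27, adjusted p = 0.00113), Fmod (-2.27, SE 0.37, adjusted p = 0.00605) and Dcn (-1.10, SE 0.18, adjusted p = 0.00590), where each value is a difference between log2 changes. In these 5 genes the later step was thus smaller or opposite. The call was not made for Lum (-0.56, SE 0.33, adjusted p = 0.369), Prelp (-0.31, SE 0.48, adjusted p = 0.769) or Ogn (-0.21, SE 0.43, adjusted p = 0.835). The median difference was -1.69 for these 8 members and -0.016 for all tested genes. The day 7 libraries count in both steps with opposite sign, and the later step is the shorter of the pair.

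**Figure D2:**
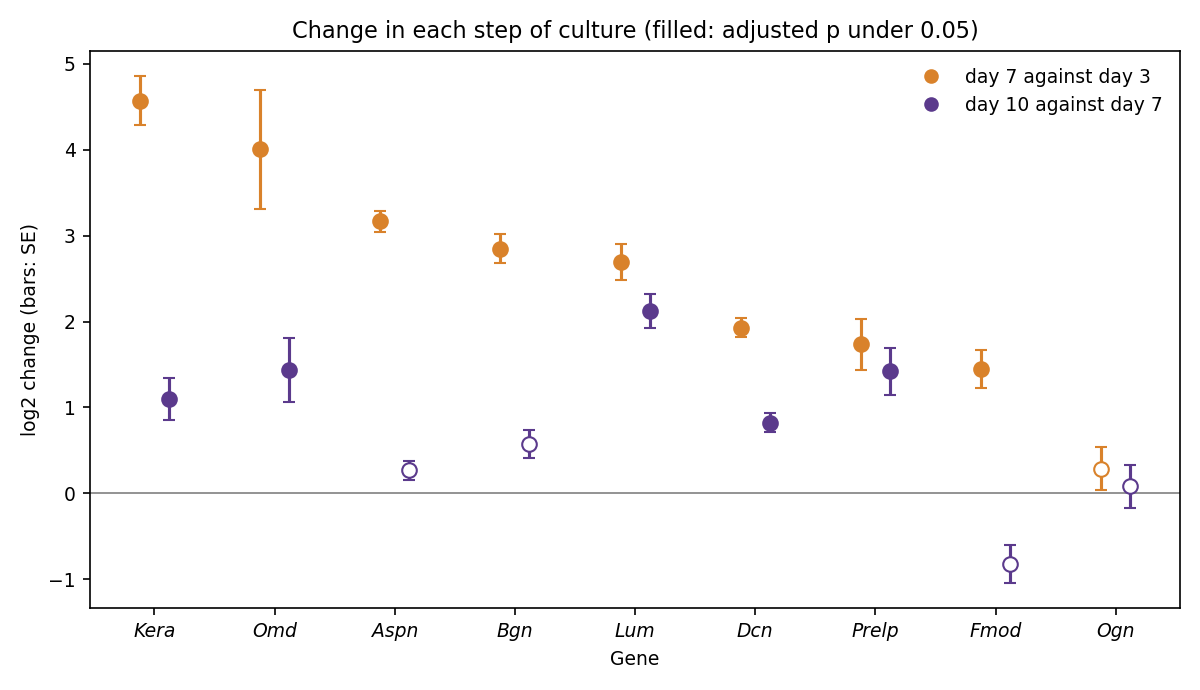
The log2 change of the 9 tested members on day 7 against day 3 and on day 10 against day 7, with bars of 1 SE; filled points passed an adjusted p under 0.05, and Omd entered the test through its high days. Lum (2.69 and 2.13) and Prelp (1.73 and 1.42) have filled points in both steps, while Aspn (3.17 and 0.27) and Bgn (2.85 and 0.57) have one only in the earlier step.

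With such unequal changes the make-up of the set shifted. Dcn held 42.6% of the members' counts on day 3, 33.4% on day 7 and 35.4% on day 10, and Bgn 28.3%, 42.1% and 37.3%. Ogn took 12.3% on day 3, 3.08% on day 7 and 1.97% on day 10, and Fmod 8.26%, 4.65% and 1.57%. Lum and Kera, minor at first, gained: Lum took 3.17% on day 3, 4.23% on day 7 and 10.9% on day 10, and Kera 1.23%, 6.00% and 7.55%. Ratios within a library, which do not depend on scaling between libraries, show these shifts too. The Fmod to Lum count ratio was 2.63, 2.37 and 2.78 on day 3, 0.831, 1.09 and 1.44 on day 7, and 0.136, 0.136 and 0.162 on day 10. Each day lay below the one before in every library. The Bgn to Dcn ratio was 0.613, 0.620 and 0.769 on day 3, 1.08, 1.19 and 1.57 on day 7, and 1.52, 0.875 and 0.890 on day 10. Here day 7 and day 10 overlapped, and only day 10 replicate 1 had more Bgn than Dcn counts on that day. The Kera to Lum ratio was 0.273 to 0.477 on day 3, 1.16 to 1.88 on day 7 and 0.487 to 0.979 on day 10, so that Kera had more counts than Lum in the day 7 libraries and in no other.

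**Figure D3:**
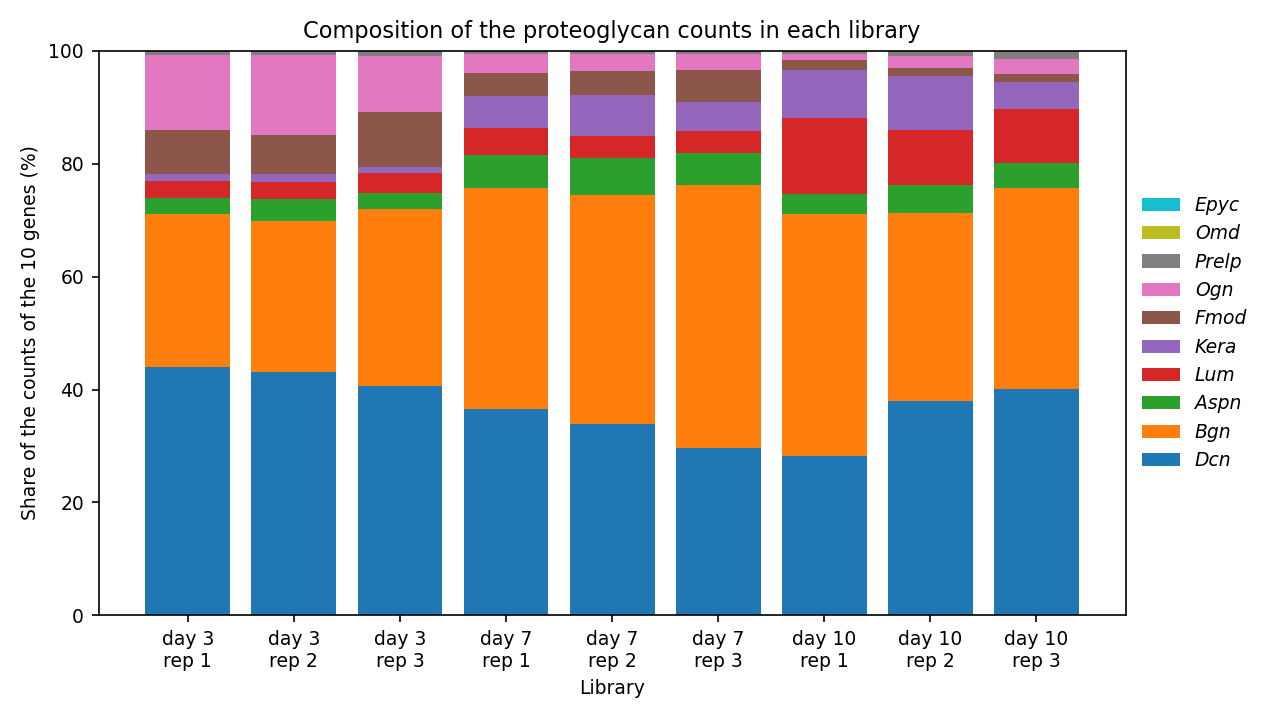
Share of the counts of the 10 genes (%) that each gene takes in each of the 9 libraries, stacked to 100%. Ogn and Fmod shrink from day 3 to day 10 while Lum and Kera grow, and Dcn with Bgn fill most of every bar.

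Levels of different genes were compared per kilobase of merged exons. On day 3 the order was Dcn (62.8 CPM per kb), Ogn (41.2), Bgn (40.2), Fmod (21.7), Aspn (11.8), Lum (11.2), Kera (4.61) and Prelp (2.01), and the libraries of Ogn and Bgn, and those of Aspn and Lum, overlapped. On day 7 Bgn (290.2 CPM per kb) and Dcn (239) overlapped at the top, followed by Kera (110) and Aspn (106), which also overlapped, and by Lum (72.5), Fmod (59.3) and Ogn (50.4), each overlapping with the next. On day 10 the order was Bgn (432 ± 82.9 CPM per kb), Dcn (424 ± 54.7), Lum (317 ± 83.0), Kera (234 ± 82.8) and Aspn (128 ± 13.1), each overlapping with the next, and then Ogn (53.3 ± 20.3), Fmod (33.6 ± 7.23) and Prelp (17.8 ± 7.52). Omd and Epyc were last on every day, at 0.627 and 0.176 CPM per kb on day 10. Ogn, level with Bgn on day 3 by this length, was thus behind Lum, Kera and Aspn on day 10 without being called lower itself. The order of Dcn and Bgn depends on the length used, since merged exons of Dcn span 5838 bases and its RefSeq-matched transcript 1758: with that transcript, Dcn led on day 10 with 1408 ± 182 CPM per kb before Bgn with 1089 ± 209. With the longest transcript Bgn led with 988 ± 190, and its libraries did not overlap with those of Dcn at 528 ± 68.0. The day 3 place of Ogn depends on the length too. Beside Ogn at 41.2 CPM per kb, Bgn had 101 with the RefSeq-matched transcript and 92.1 with the longest, without overlap.

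Most of these genes lie in families of neighbours. Positions are those of RefSeq on GRCm38, the assembly that the submitters' notes call mm10, and strands and exons are those of GENCODE M21. On the plus strand of chromosome 10 follow Dcn (97479500 to 97518163), Lum (97565501 to 97572703), Kera (97606962 to 97613688) and Epyc (97644068 to 97681908), with 47338, 34259 and 30380 bases between them. The 3 measured genes of this run rose by 2.75, 4.82 and 5.67 on the log2 scale on day 10 against day 3, and Epyc stayed near its floor. On the plus strand of chromosome 13 follow Aspn (49544443 to 49567565), Omd (49582462 to 49592612) and Ogn (49608015 to 49624501). Here Aspn was called, Omd had a ratio of 51.5 from few counts, and Ogn was not called. Prelp (133910304 to 133930102, minus strand) and Fmod (134037254 to 134048280, plus strand) lie 107152 bases apart on chromosome 1, and Bgn lies alone on chromosome X (73483601 to 73495936).

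Ecm2, a related leucine-rich repeat gene of the matrix, lies 11654 bases before Aspn. Ecm2 had 21.8 ± 2.18 CPM on day 3, 78.9 ± 15.8 CPM on day 7 and 72.1 ± 26.0 CPM on day 10, and it rose on day 10 against day 3 (log2 change 1.73, SE 0.24, adjusted p = 0.000275). Cenpp, a centromere protein gene on the minus strand, spans the whole chromosome 13 run and shares 7 exon bases with Aspn and none with Omd or Ogn. No source used here gives the strand setting of the counting, so reads of Cenpp and of genes antisense to it could not be separated where they overlap. Cenpp was low and went the other way, with 5.05 ± 2.15 CPM on day 10 against 10.7 ± 0.967 CPM on day 3 (log2 change -1.09, SE 0.31, adjusted p = 0.0125). Gm10754, a long non-coding RNA that overlaps the end of Epyc, had 0 counts in all libraries. Of 22 other genes within 3 genes of a member, Ecm2 and Cenpp among them, 16 were tested. On day 10 against day 3, 4 rose and 8 fell, beside the 29.5% and 27.2% of all tested genes. The median log2 change of the 16 was -0.33, with a range of -3.10 to 1.73. Among the 4, Lax1 passed the filter through its later days, with 0.973 CPM on day 10 beside 0.287 CPM on day 3. Of the genes next to the chromosome 10 run, Btg1 fell by 0.49 on the log2 scale (adjusted p = 0.00963) and Atp2b1 had a log2 change of 0.02 (adjusted p = 0.833).

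**Figure D4:**
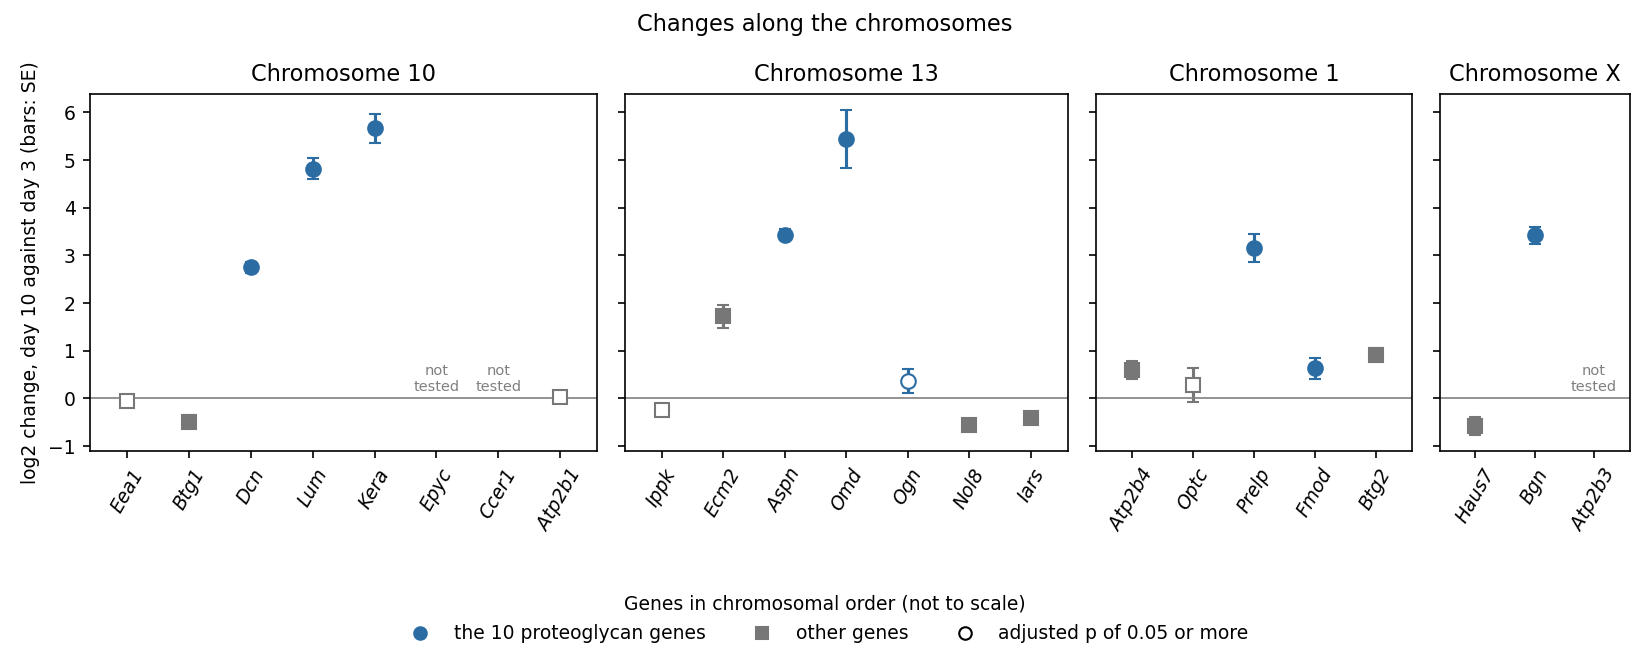
The log2 change on day 10 against day 3, with bars of 1 SE, for members (circles) and other genes beside them (squares) in chromosomal order, not to scale; open symbols had an adjusted p of 0.05 or more, and some annotated genes of the intervals, among them Cenpp, are not drawn. The members stand between 0.37 (Ogn) and 5.67 (Kera), while the neighbours drawn other than Ecm2 stay between -0.57 and 0.92. Of the tested neighbours not drawn, Dusp9 (-3.10), Cenpp (-1.09), Pnck (-1.02) and Lax1 (1.71) lie outside that range.

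Upstream sequence was read for the 8 members whose start site is in the RefSeq table of GRCm38.p6. The 250 bases before the start were searched on both strands for 5 short motifs. The TATA box was read as TATAAA, the CCAAT box by its own letters and the GC box as GGGCGG. The motif of TEAD factors was read as GGAATG and that of AP-1 as TGANTCA. The neighbours Aspn and Ogn are shown because one was called and the other was not, and Bgn because it is the abundant member outside the runs. All are on the plus strand, written 5′ to 3′, with matches in capitals; they cover chr13:49544193-49544442 (Aspn), chr13:49607765-49608014 (Ogn) and chrX:73483351-73483600 (Bgn).
Aspn: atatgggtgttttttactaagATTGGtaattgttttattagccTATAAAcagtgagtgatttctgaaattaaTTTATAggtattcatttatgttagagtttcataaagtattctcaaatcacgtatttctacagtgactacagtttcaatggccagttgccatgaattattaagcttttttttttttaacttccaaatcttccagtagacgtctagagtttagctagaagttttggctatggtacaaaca
Ogn: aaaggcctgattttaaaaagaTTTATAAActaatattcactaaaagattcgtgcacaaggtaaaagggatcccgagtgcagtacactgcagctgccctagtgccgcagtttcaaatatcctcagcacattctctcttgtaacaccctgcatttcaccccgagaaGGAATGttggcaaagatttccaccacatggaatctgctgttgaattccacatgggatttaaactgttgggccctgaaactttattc
Bgn: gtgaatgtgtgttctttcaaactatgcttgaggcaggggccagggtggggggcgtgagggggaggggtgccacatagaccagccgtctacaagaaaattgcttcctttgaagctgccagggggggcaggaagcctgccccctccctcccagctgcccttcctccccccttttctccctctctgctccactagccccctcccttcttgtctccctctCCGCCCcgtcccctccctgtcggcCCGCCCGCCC
In Aspn the capitals mark a CCAAT box on the minus strand and TATAAA once on each strand, 207 and 178 bases before the start. Ogn has TATAAA on both strands in an overlapping pair, 229 and 227 bases before the start, and GGAATG 86 bases before it. Bgn has 3 GC boxes on the minus strand, 34, 10 and 6 bases before the start, of which the last pair overlaps, in a stretch rich in C. The 8 members have 9 windows, since Epyc has 2, and a member was counted if any of its windows held a match. Of the 8 members, 2 held a TATA box, 3 a CCAAT box, 1 a GC box, 2 a TEAD motif and 0 an AP-1 motif. The TEAD match of Epyc is in its window 2, and the shares that follow count windows, not genes. Over all 32851 windows of the same length, the TATA box was in 12.4%, the CCAAT box in 33.8%, the GC box in 32.7%, the TEAD motif in 12.6% and the AP-1 motif in 6.75%. A match describes letters in this window and says nothing about a factor.

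Genes that make the sugar chains, bind the same collagens or cut the proteins were read from lists written for this purpose, without a test of the lists; the shares of all tested genes to read them against are the 29.5% that rose and the 27.2% that fell on day 10 against day 3. Of the other proteoglycans and relatives of the family, 5 of 7 tested rose and none fell on day 10 against day 3. Among the 5, Podnl1 had 0.0961 CPM on day 3 and 0.775 CPM on day 10, and like Omd it passed the filter through its high days. Podn, podocan, had 17.5 ± 4.78 CPM on day 10 against 3.45 ± 0.637 CPM on day 3 (log2 change 2.34, SE 0.25, adjusted p = 4.14e-05), and Tsku, tsukushi, 48.4 ± 9.30 CPM against 34.2 ± 1.27 CPM (log2 change 0.50, SE 0.13, adjusted p = 0.00809). Of 22 genes of chondroitin and dermatan sulfate synthesis, 13 rose and 2 fell, with a median log2 change of 0.55. Among the 13, Chst13 passed the filter only through day 10, with 0.614 CPM beside 0.0147 CPM on day 3. Xylt1, which adds the first sugar of the chain to the core protein, had 28.4 ± 5.48 CPM on day 10 against 5.61 ± 0.585 CPM on day 3 (log2 change 2.33, SE 0.17, adjusted p = 3.54e-06). Chst15, which adds a second sulfate to chondroitin sulfate, fell to 21.6 ± 1.61 CPM on day 10, against 109 ± 8.64 CPM on day 3 (log2 change -2.33, SE 0.09, adjusted p = 1.06e-07). Chsy3 and Chst7 of the same list rose, by log2 changes of 1.54 and 1.73. Of 6 tested genes of keratan sulfate synthesis, 4 rose and 1 fell. Their leader was B3gnt2, an enzyme of chain extension, with 90.0 ± 11.9 CPM on day 10 against 17.7 ± 0.763 CPM on day 3 (log2 change 2.34, SE 0.11, adjusted p = 2.22e-07), and Chst1, Chst2 and B4galt1 had log2 changes of 1.27, 1.25 and 0.93, all called higher. The members of these lists that fell beside Chst15, named after their values were seen, were Csgalnact1 (log2 change -0.65), which starts chondroitin chains, and B3gnt7 (-1.53), which extends keratan sulfate.

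Partners of the proteins in the matrix were read in the same way, against the same shares of 29.5% and 27.2%. Of 11 fibrillar collagen genes 8 rose and 1 fell on day 10 against day 3, with a median log2 change of 1.24, and their summed level was 2.73-fold higher. That sum is mostly Col1a1, Col1a2 and Col3a1, which also make up most of the mesenchyme sum, so that the sums are not separate results. Col5a3 had the largest change, with 692 ± 170 CPM on day 10 against 3.69 ± 0.742 CPM on day 3 (log2 change 7.55), and the abundant Col1a1 and Col1a2 rose by 1.60 and 2.24 on the log2 scale, and Col11a1 by 1.88. Of 18 tested receptors and bound ligands, 8 rose and 2 fell, with a median of 0.41. Among the 8, P2rx7 passed the filter through its later days, with 1.49 CPM on day 10 beside 0.260 CPM on day 3. Ccn2, a matricellular protein that decorin can bind, had the largest rise, with 35.5 ± 14.2 CPM on day 10 against 1.09 ± 0.205 CPM on day 3 (log2 change 5.02, SE 0.36, adjusted p = 4.31e-06). P2rx4, an ATP-gated channel linked to biglycan signalling, had 23.9 ± 1.32 CPM on day 10 against 4.19 ± 0.209 CPM on day 3 (log2 change 2.51, SE 0.12, adjusted p = 2.25e-07). The innate receptor Tlr4, which biglycan can engage, had 18.0 ± 4.11 CPM on day 10 against 3.93 ± 0.575 CPM on day 3 (log2 change 2.20, SE 0.19, adjusted p = 8.01e-06). Kdr, the endothelial VEGF receptor, fell on day 10 against day 3 (log2 change -2.21, SE 0.56, adjusted p = 0.00922) and had 59.2 ± 10.8 CPM on day 3, 91.8 ± 52.2 CPM on day 7 and 12.8 ± 10.2 CPM on day 10. The summed level of the other 5 endothelial markers was 18.2 to 42.6 CPM on day 3, 6.74 to 30.4 CPM on day 7 and 4.51 to 16.7 CPM on day 10; of these Tek and Erg fell on day 10 against day 3, Pecam1, Cdh5 and Tie1 were not called, and their part in the Kdr result was not tested. Of 9 tested proteases and their helpers, 8 rose and 1 fell. Among the 8, Mmp3 passed the filter only through day 10, with 1.83 CPM beside 0 CPM on day 3. Adamts5 and Adamts4, which cut chondroitin sulfate proteoglycans, rose by 2.54 (SE 0.16, adjusted p = 1.98e-06) and 2.34 (SE 0.14, adjusted p = 9.30e-07), and Pcolce, the enhancer of collagen propeptide cleavage, rose by 1.75. Tll2, a tolloid-like protease, rose by 1.19 (SE 0.25, adjusted p = 0.00246). The lone falls among collagens and proteases, named after their values were seen, were Col24a1 (log2 change -0.45) and Tll1 (-0.73), and Erbb4 was the receptor that fell beside Kdr, at under 1 CPM. Erbb4 passed the filter only through day 3, with 0.493 CPM beside 0.0283 CPM on day 10.

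Among themselves, Dcn, Lum, Bgn, Kera, Prelp, Aspn and Omd had pairwise Pearson r between 0.893 and 0.986 over the 9 libraries on log2 CPM. The 9 points fall into 3 days, whose differences these genes share. Fmod and Ogn were the least alike, with r = 0.048, and Ogn reached 0.276 to 0.483 with the other members. Among 10996 candidate genes, those most like Dcn were Col6a1, P3h2 and Col6a2 (r = 0.999, 0.999 and 0.998). For Bgn they were Lrrc17, Crip1 and S100a6 (0.999, 0.998 and 0.997), for Aspn Emp2, Pmp22 and Gnb4 (0.997, 0.996 and 0.996), and for Kera Kif1c, Olfml2a and Mical1 (0.997, 0.997 and 0.996). Lum was closest to Creg1, Golga5 and P2rx4 (0.995, 0.995 and 0.994), and Prelp to Tcta, Pcyox1 and Ginm1 (0.994, 0.993 and 0.993). Fmod was closest to Dzip1l, Cmya5 and Plcb3 (0.971, 0.950 and 0.947), all of which had their highest mean on day 7. Ogn was closest to Hdac4, Chm and Fto (0.965, 0.939 and 0.937).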

How the data were processed

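The authors deposited raw read counts per gene for 9 libraries, made with featureCounts against mm10 per the submitters' notes. Which aligner, gene annotation, strand setting and treatment of multi-mapping reads were used is not given in the sources used here. Gene IDs were named from RefSeq (25275) and GENCODE M21 (18), and 1886 stayed unnamed. Counts were filtered with filterByExpr (14940 of 27179 genes kept), scaled by TMM and fitted over all 9 libraries with edgeR 4.0.16 in R 4.3.3 (robust quasi-likelihood test, Benjamini-Hochberg over all tested genes, threshold 0.05). Standard errors were obtained as |log2 change| / √F, and log2 CPM used a prior count of 2. Steps were tested on simulated data. Alternatives covered scaling, filters, DESeq2 1.42.0, a replicate block and left-out libraries. The 10 members and all lists were chosen with earlier results of these data known. All members are named. Of related lists, the rule allowed the 4 largest called changes with at least 5 CPM, and genes beside members; for likeness, the 3 genes averaging at least 5 CPM with the highest r, for members averaging at least 10 CPM. No label says that replicates are separate cultures, so p-values measure the spread between these libraries. No 2 libraries of a day were duplicates.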

Additional observations from a re-analysis of the deposited data

How the results depend on the processing

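With Omd counted, the numbers of members called on day 7 against day 3, on day 10 against day 3 and for the difference between steps stayed within 1.5 times under all alternatives run, and leaving out 1 library gave 8 to 8, 7 to 8 and 5 to 6. On day 10 against day 7 the 5 calls became 2 in the fit of only those 2 days and 2 to 6 when 1 library was left out: 3 without day 7 replicate 1, 2 without replicate 2 and 3 without replicate 3 of that day. Over all genes this comparison called 1271, but 290 with only the 2 days, 304 to 1548 without 1 library and 2115 with DESeq2; the step difference called 1199, and 552 to 1817 without 1 library. Related genes called were 49 to 55 without 1 library, and 53 with all. The only log2 changes that turned direction were those of Ogn: on day 10 against day 7 to -0.02 without day 10 replicate 2, to -0.15 without day 10 replicate 3, and to -0.15 without day 3 replicate 2 and day 10 replicate 3; and the step difference to 0.071 without day 10 replicate 1. Leaving out libraries gave that gene 0.36 at most on day 10 against day 7, and a step difference of -0.52 to 0.071. The cause was not tested. Bgn on day 10 against day 7 was called in 4 alternatives (adjusted p down to 0.00628) and the fall of Fmod in 5 (down to 0.00298). Libraries with the same replicate number did not all deviate together (r of their deviations -0.0694 to 0.433). Of 18 best matches between days, 12 were to a library's own number. That hint falls short of the r over 0.1 in every pair asked of a pairing. The columns of the count table are named in order of day within each replicate number, but no label says that a number marks the same culture. With a replicate block, and Omd counted, 8, 8, 6 and 5 members were called (day 7 against day 3, day 10 against day 3, day 10 against day 7 and the step difference). Over all 14940 tested genes the block called 6319, 8565, 1374 and 1263. Among the 6 members was the fall of Fmod (adjusted p = 0.0313). Omd on day 3 and Epyc on all days are limited by depth, with 0 to 22 counts a library.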

Other observations

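The day 10 libraries differed among themselves in a way that the day means hide. Replicate 1 had the most Bgn, Lum and Fmod of the 3 and the least Dcn, Ogn, Prelp and Aspn. Its Ogn level was 77.8 CPM, beside 156 and 177 CPM in the others, and its Ecm2 level 49.3 CPM, beside 100.5 and 66.3 CPM. Replicate 3 had the least Kera, with 316 CPM beside 632 and 654 CPM, and the most Prelp, with 94.7 CPM beside 42.0 and 56.7 CPM. Sox9, which marks the progenitors named in the title, had 56.2, 90.4 and 108 CPM in the 3 day 10 libraries, and Mcm7, a gene of DNA replication, 75.6, 75.0 and 61.7 CPM. These values were picked after they were seen and were not tested.

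Markers of other cell types also shifted between days. The sum of 7 erythroid genes was 0.176 to 0.440 CPM on day 10 against 1050 to 1254 CPM on day 3, and that of 6 neuron and glia genes 16.3 to 21.0 CPM on day 7 against 112 to 145 CPM on day 3. The sum of 6 smooth muscle genes was 407 to 822 CPM on day 10 against 233 to 248 CPM on day 3. Their part in the proteoglycan levels was not tested.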
